A study of Mus musculus with 5 samples.

Results

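Interferon-stimulated genes are the genes that cells switch on after interferon binds its receptor. The set described here was a list of 39 gene symbols, chosen with earlier results of these data known. The symbols were matched by name, and no measured level entered the match. Of these, 38 had a row among the 31053 genes counted, and Mx2 had none; the 38 genes are called the members from here on. Their transcripts were counted in single cells of mammary tumors from MMTV-PyMT mice (FVB/N), in which the mouse mammary tumor virus promoter expresses polyoma middle T in the mammary epithelium. From 7 weeks of age, mice received either isotype mouse IgG2a (clone C1.18.4) or B20-4.1.1, an antibody that neutralizes VEGF-A, each at 5 mg/kg intraperitoneally 2 times a week for 6 weeks. There were 6 isotype tumors in 2 pools and 9 B20-4.1.1 tumors in 3 pools, with 3 tumors to a pool, told apart by lipid-bound oligonucleotide tags. The tumor was the replicate. Because all tumors of a pool had 1 treatment, pool and treatment cannot be told apart.

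Type I interferons, such as interferon-β, signal through a cell surface receptor to promoters that hold the interferon-stimulated response element (ISRE). Interferon-γ, the type II interferon made mostly by T and NK cells, acts through its own receptor on promoters with the gamma-activated site (GAS). The induced proteins sense foreign nucleic acids, degrade RNA, block virus entry and budding, mark other proteins and feed back on interferon signaling; tumor cells and tumor leukocytes can express them without a virus.

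Promoter sequence was examined because both sites are short and can be read directly. RefSeq windows of 300 bases (GRCm38.p6, 250 bases before the transcript start to 50 after it) were available for 28 members. No window was at hand for Oas2, Mx1, Mx2, Ifi27, Ifi27l2a, Dhx58, Usp18, Iigp1, Zbp1, Rtp4 or Parp14. The ISRE-type letters, GAAA, then NN (any 2 bases), then GAAA, searched on both strands, were present in 18 of these 28 members (64.3%) and in 1079 of 27025 genes with a window (3.99%). The GAS-type letters TTCNNNGAA were present in 8 of the 28 members (28.6%) and in 2582 of the 27025 genes (9.55%). Of the 18 members that were higher in B20-4.1.1 epithelial-like cells, 12 had a window and 7 of these held an ISRE-type match; of the 20 that were not, 16 had a window and 11 held a match. A match is only a run of letters and was not tested as a site.

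The stretches that follow, each of 30 bases on the gene's own strand, 5′ to 3′, show matches (capitals) in 7 members that were higher in treated epithelial-like cells and, for contrast, in 3 that did not pass the test there. The Isg15 stretch joins 3 overlapping matches, and those of Oas1a, Irgm1, Gbp3 and Bst2 join 2 each. The positions are chr4:156200871-156200900 for Isg15, chr5:120907523-120907552 for Oas1a, chr11:48871428-48871457 for Irgm1 and chr8:71537580-71537609 for Bst2, all on the minus strand, and chr3:142559992-142560021 for Gbp3, on the plus strand. Trim30a (chr7:104465210-104465239) and Ifitm3 (chr7:141010706-141010735) are on the minus strand, Ifit1 (chr19:34640794-34640823) and Gbp7 (chr3:142530273-142530302) on the plus strand, and Ifih1 (chr2:62646206-62646235) on the minus strand. Each lies upstream of the transcript start except those of Ifitm3 and Ifih1, whose matches begin at positions 20 and 33 counted from the start as 1.
Isg15: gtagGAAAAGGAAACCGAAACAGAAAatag
Oas1a: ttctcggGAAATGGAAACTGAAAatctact
Irgm1: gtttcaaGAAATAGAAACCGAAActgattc
Bst2: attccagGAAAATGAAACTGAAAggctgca
Gbp3: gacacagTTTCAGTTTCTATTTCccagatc
Trim30a: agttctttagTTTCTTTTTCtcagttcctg
Ifitm3: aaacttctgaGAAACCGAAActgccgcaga
Ifit1: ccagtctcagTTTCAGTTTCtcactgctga
Gbp7: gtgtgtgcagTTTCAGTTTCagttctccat
Ifih1: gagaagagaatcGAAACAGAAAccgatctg

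Of 30340 deposited cells, 19533 had at least 2500 UMIs (unique molecular identifiers, which count captured transcripts), lay under the upper limit that the study set against multiplets, and had at most 20% mitochondrial UMIs. Marker genes placed 13709 of them in an epithelial-like, 1539 in a macrophage-like and 2526 in a T-like class, which had at least 20 cells in each of the 15 tumors. All 10 epithelial markers were detected in epithelial-like cells of every tumor, and the macrophage and T cell markers marked their own classes. The same markers had set the classes, so this is no separate check of them. Levels are UMIs per 10000 UMIs of the class in a tumor. The assay reads transcript 3′ ends, so these levels are not divided by gene length and were compared between tumors or classes for 1 gene, or summed, rather than ranked between genes as expression per length. Tumor c of B20-4.1.1 pool 3 stood apart in its member levels in all 3 classes, and results are given with and without it. T-like cells made up over 40% of the kept cells in 3 B20-4.1.1 tumors (pool 1 tumor c, pool 2 tumors a and c).

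The members together were higher in epithelial-like cells of B20-4.1.1 tumors. Their summed level ranged from 9.73 to 14.3 UMIs per 10000 in the 6 isotype tumors, with a median of 13.6, and from 12.5 to 39.8 in the 9 B20-4.1.1 tumors, with a median of 19.9. Of the 9 treated tumors, 8 lay above the highest isotype tumor, and pool 1 tumor a lay inside the isotype range. Isotype tumors averaged 12.8 ± 1.75 (SD, n = 6) and treated tumors 21.2 ± 7.66 (SD, n = 9), a difference of 8.42, or 6.1 without tumor c of pool 3. Pools differed too. Isotype pools 1 and 2 had mean sums of 13.9 and 11.6, and B20-4.1.1 pools 1, 2 and 3 had mean sums of 15.5, 19.955 and 28.2. A sum of the 15 members that lean toward type I interferon (the Ifit, Oas and Oasl genes, Isg15, Rsad2, Irf7, Mx1, Usp18 and Cmpk2) was 1.62 ± 0.606 against 3.74 ± 2.09, and that of the 7 that lean toward interferon-γ (Irf1, Iigp1, Igtp, Irgm1, Gbp2, Gbp3 and Gbp7) was 1.55 ± 0.310 against 1.94 ± 0.592. With and without tumor c of pool 3, the difference between the groups was 2.12 and 1.46 for the type I-leaning sum, and 0.391 and 0.233 for the interferon-γ-leaning sum. For the latter, B20-4.1.1 pool 1 averaged 1.42, below isotype pool 1 at 1.76.

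**Figure D1:**
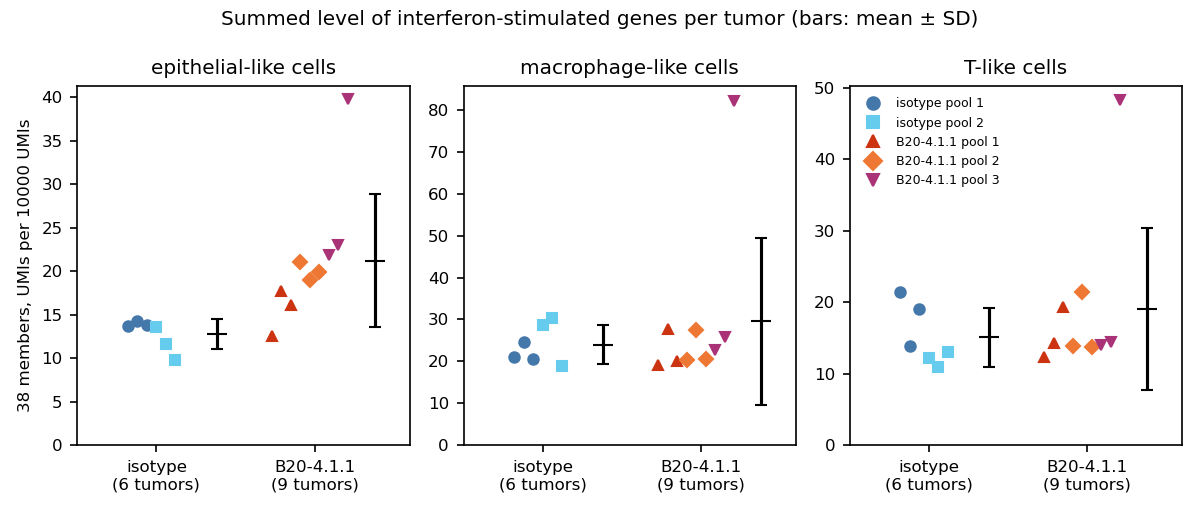
Summed level of the 38 members in UMIs per 10000 UMIs (y axis) for each tumor, by treatment, in epithelial-like, macrophage-like and T-like cells; symbols mark the 5 pools and bars give the mean ± SD over tumors. In epithelial-like cells 8 of 9 B20-4.1.1 tumors lie above every isotype tumor, whereas in the other 2 classes the groups overlap and tumor c of B20-4.1.1 pool 3 lies far above the rest.

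Gene by gene, all 38 members were tested in epithelial-like cells with edgeR's quasi-likelihood test on the UMI sums per tumor. Of these, 18 rose with B20-4.1.1 and 0 fell at an adjusted p under 0.05. Over all 12327 genes tested in the class, 7.44% were called higher and 6.78% lower. The median log2 fold change was 0.88 over the members and -0.00 over all genes; it was positive in 38 of 38 members and in 49.4% of all genes. With tumor c of pool 3 left out, 14 members rose, beside 759 of 12300 genes called higher, and the members' median was 0.64. With the pool fitted as a random block 0 passed (limma-voom, lowest adjusted p = 0.0652, 15 members at an unadjusted p under 0.05), and with UMIs summed per pool 0 passed (21 members at an unadjusted p under 0.05). Of all 12327 genes, the block fit called 28 higher and 7 lower, and 2034 had an unadjusted p under 0.05 (limma-voom). The sums per pool called 0 of 14080 genes in either direction, and 1321 had an unadjusted p under 0.05 (edgeR). Without isotype pool 1 the count of members that rose was 7, beside 225 of 12364 genes called higher. Without B20-4.1.1 pool 3 it was 11, beside 605 of 12191 genes. Without isotype pool 2 it was 13, beside 2808 of 12653 genes, so more of all genes were called there too. Isg15, Dhx58, Irf7, Irgm1, Rtp4 and Xaf1 were called whichever of the 5 pools was left out.

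**Figure D2:**
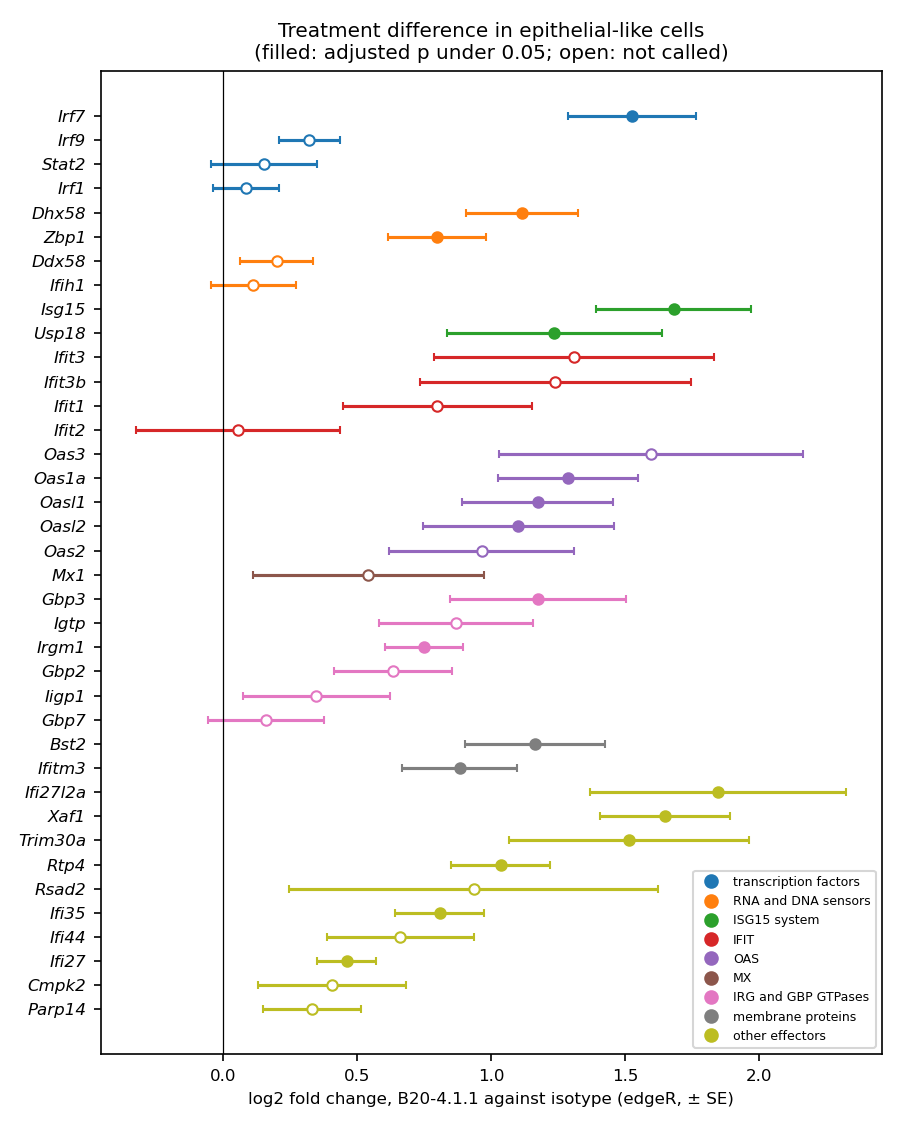
Log2 fold change of each member in epithelial-like cells, B20-4.1.1 against isotype (x axis, edgeR, bars ± SE), grouped and colored by role; filled points have an adjusted p under 0.05 and open points do not. The 18 filled points all lie right of 0, and no point lies left of it.

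Among the transcription factors, Irf7, which drives transcription of the type I interferon genes and is itself induced by interferon, separated the groups. Its level ranged from 0.262 to 0.459 UMIs per 10000 in isotype tumors (median 0.417) and from 0.499 to 2.14 in B20-4.1.1 tumors (median 0.891). Every treated tumor lay above every isotype tumor, and the fold change was 1.52 on the log2 scale (SE 0.238, edgeR adjusted p = 0.00118). Irf9 and Stat2, which act in type I interferon signaling, and Irf1, a factor induced early by interferon-γ, did not pass the test: their log2 fold changes were 0.32, 0.15 and 0.08. Irf1 ranged from 0.429 to 0.485 in isotype and from 0.317 to 0.640 in treated tumors, with 4 of 9 treated tumors above the isotype mean.

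In the ISG15 system both members rose. Isg15 encodes a ubiquitin-like protein that is attached to other proteins, and Usp18 encodes the protease that removes it and that dampens the type I receptor. Isg15 ranged from 0.278 to 0.695 UMIs per 10000 in isotype tumors (median 0.5) and from 0.659 to 3.32 in treated tumors (median 1.31), and 8 of 9 treated tumors lay above the highest isotype tumor. Its fold change was 1.68 on the log2 scale (SE 0.288, edgeR adjusted p = 0.00197), and that of Usp18 was 1.24 (edgeR adjusted p = 0.0479).

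Of the 5 oligoadenylate synthetase genes, whose enzymatically active products switch on RNase L, Oas1a, Oasl1 and Oasl2 rose. Oas1a was sparse: it ranged from 0.0127 to 0.0203 UMIs per 10000 in isotype tumors (median 0.0138) and from 0.0167 to 0.0676 in treated tumors (median 0.0278), with 1 treated tumor inside the isotype range. The log2 fold change was 1.29 for Oas1a (SE 0.262, edgeR adjusted p = 0.00571), 1.17 for Oasl1 and 1.10 for Oasl2. Oas2 and Oas3 did not pass (log2 fold changes 0.96 and 1.6, edgeR adjusted p = 0.0675 and 0.066), and Oas3 was at 0 UMIs in the treated tumor with the fewest epithelial-like cells (78 cells).

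None of the 4 Ifit genes, whose proteins bind foreign RNA, passed. Their log2 fold changes were 0.80 for Ifit1, 1.31 for Ifit3, 1.24 for Ifit3b and 0.06 for Ifit2. Ifit3 ranged from 0.0137 to 0.0709 in isotype and from 0.0196 to 0.320 in treated tumors, and the groups overlapped in 6 of the 9 treated tumors. Ifit2 was above the isotype mean in only 1 of 9 treated tumors; its mean level was 0.0399 in isotype and 0.0356 in treated tumors, and its fold change was negative under library totals in place of TMM factors (-0.08 on the log2 scale) and without tumor c of pool 3 (-0.41). Ifit3 and Ifit3b, and the Oas and Gbp families, have closely similar sequences, so the share of UMIs between paralogs is uncertain.

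Of the nucleic acid sensors, Dhx58 (LGP2, a helicase of the RIG-I family) and Zbp1 (a sensor of Z-form nucleic acids that can start necroptosis) rose, with log2 fold changes of 1.11 and 0.80 (edgeR adjusted p = 0.00363 and 0.0106). Their relatives Ddx58 (RIG-I) and Ifih1 (MDA5) did not pass, at 0.20 and 0.11 on the log2 scale. Dhx58 ranged from 0.0454 to 0.0711 UMIs per 10000 in isotype and from 0.0577 to 0.182 in treated tumors, with 1 treated tumor inside the isotype range. Ifih1 ranged from 0.161 to 0.336 and from 0.155 to 0.336, and no treated tumor exceeded the isotype maximum.

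Among the interferon-inducible GTPases, which act against microbes inside vacuoles, Irgm1 and Gbp3 rose, by 0.75 and 1.17 on the log2 scale (edgeR adjusted p = 0.00429 and 0.0254). Igtp, Gbp2, Iigp1 and Gbp7 did not pass; their log2 fold changes were 0.87, 0.63, 0.35 and 0.16. Mx1, the single measured member of the Mx family of dynamin-like GTPases, was at 0.54 on the log2 scale and did not pass.

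Both membrane proteins rose. Bst2 (tetherin), which holds budding virions at the cell surface, ranged from 0.548 to 0.676 UMIs per 10000 in isotype tumors (median 0.630) and from 0.723 to 3.06 in treated tumors (median 1.09), with no overlap between the groups. Ifitm3, which blocks virus entry in endosomes and gave the most UMIs of the members in this class, ranged from 2.74 to 3.61 (median 3.03) and from 2.96 to 10.5 (median 5.05). All but 1 treated tumor, pool 1 tumor a, exceeded the isotype range. The log2 fold change was 1.16 for Bst2 (SE 0.261, edgeR adjusted p = 0.0094) and 0.88 for Ifitm3 (SE 0.215, edgeR adjusted p = 0.0134).

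Of the 10 other effectors, 6 rose. Xaf1, an antagonist of the apoptosis inhibitor XIAP, ranged from 0.130 to 0.234 UMIs per 10000 in isotype tumors (median 0.197) and from 0.278 to 0.988 in treated tumors (median 0.462); the groups did not overlap, and its log2 fold change of 1.65 had the lowest adjusted p of the members (SE 0.243, edgeR adjusted p = 0.000904). Ifi27l2a and Ifi27 belong to the ISG12 family of small hydrophobic proteins. Ifi27l2a had the largest log2 fold change among members that passed, 1.85 (SE 0.478, edgeR adjusted p = 0.0177), with 0.0855 to 0.578 in isotype (median 0.250) and 0.193 to 2.59 in treated tumors (median 0.570), and 5 of 9 treated tumors lay within the isotype range. Ifi27 moved less, from 1.84 to 2.71 (median 2.49) in isotype and from 2.56 to 3.54 (median 3.03) in treated tumors, and its log2 fold change was 0.46 (SE 0.109, edgeR adjusted p = 0.0117).

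Trim30a, an E3 ubiquitin ligase that restrains NF-κB signaling, ranged from 0.00612 to 0.0561 UMIs per 10000 in isotype (median 0.0390) and from 0.0216 to 0.230 in treated tumors (median 0.0717). Its log2 fold change was 1.51 (SE 0.449, edgeR adjusted p = 0.0332), but 1.13 with edgeR adjusted p = 0.0707 without tumor c of pool 3, and it passed in only 1 of the 5 fits that left out a pool. Rtp4 and Ifi35 also rose, by 1.03 and 0.81 on the log2 scale, while Rsad2 (viperin), Cmpk2, Parp14 and Ifi44 did not pass. Rsad2 was above the isotype mean in 3 of 9 treated tumors. No treated tumor overlapped an isotype tumor in 4 of the 38 members, Bst2, Irf7, Ifi35 and Xaf1, against 1.51% of all genes tested in this class.

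**Figure D3:**
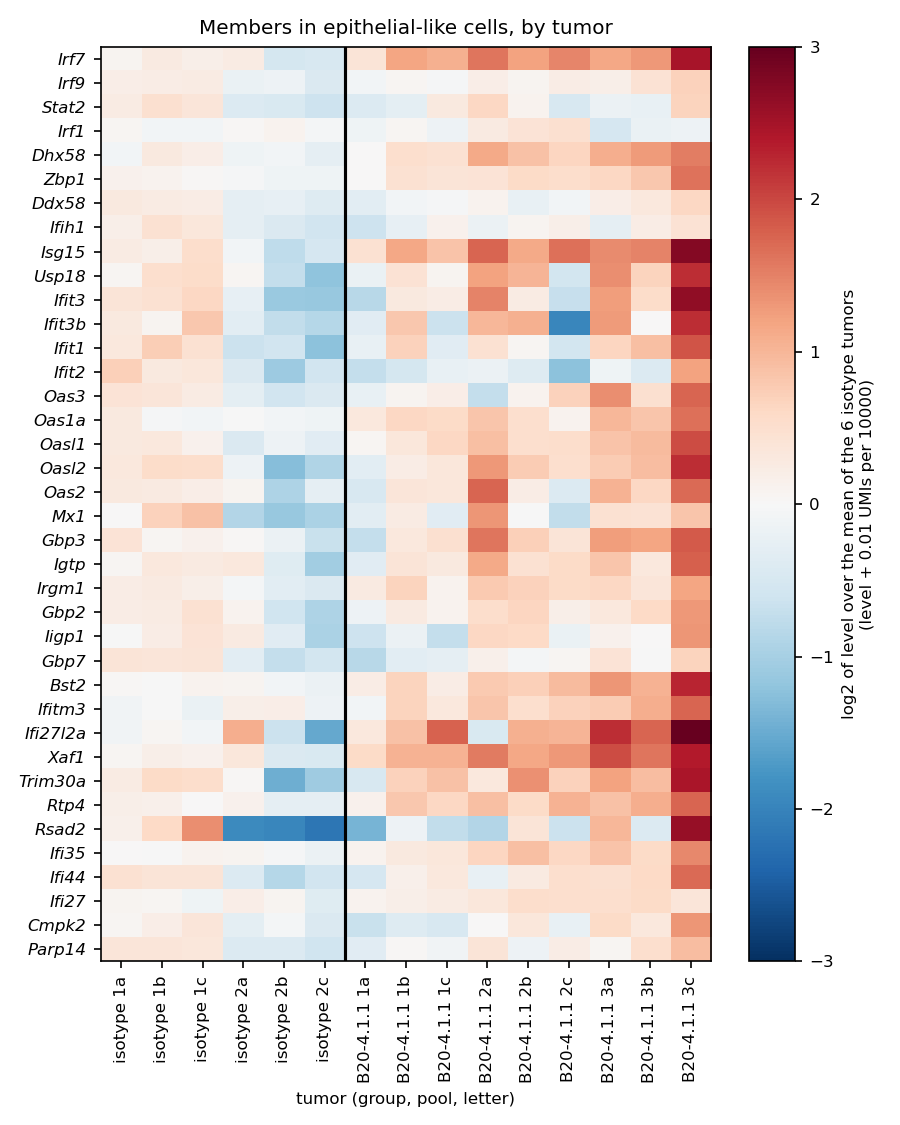
Level of each member (rows, by role) in epithelial-like cells of each tumor (columns, by group, pool and letter), as log2 of the level over the mean of the 6 isotype tumors, with 0.01 UMIs per 10000 added to both. Rows such as Irf7, Bst2, Xaf1 and Ifi35 are above 0 across the 9 B20-4.1.1 columns.

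Other properties of the epithelial-like cells differed between the groups as well. The summed level of the 10 epithelial markers was 67.0 to 88.7 UMIs per 10000 in isotype and 89.1 to 128 in treated tumors, and the mitochondrial share was 4.27% to 6.85% against 3.07% to 4.37%. Neutrophil markers in these cells summed to 4.45 to 11.4 against 2.77 to 8.81 UMIs per 10000 (2 to 8 of 8 markers detected), macrophage markers to 0.198 to 0.828 against 0.262 to 0.508 (6 to 10 of 10 detected) and T cell markers to 0.0736 to 0.166 against 0.131 to 0.365 (7 to 10 of 10 detected). The part of these differences in the result was not tested. The median depth per cell overlapped, at 7556 to 9466 UMIs in isotype and 7434 to 11900 in treated tumors, and with each cell thinned to 2500 UMIs 16 of the 34 members tested rose. After thinning, 497 of all 10191 genes tested were called higher and 463 lower.

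Across the 15 tumors the members moved together in epithelial-like cells. Over 703 pairs of members the median Spearman correlation was 0.65 and 667 pairs were positive; with each pool's mean removed the median was 0.561 and 666 were positive. For the 4 members with the highest levels, the most alike were Xaf1 and Rtp4 for Ifitm3 (0.90 each), Xaf1 (0.882) and Bst2 (0.861) for Ifi27, Irf7 (0.946) and Bst2 (0.943) for Isg15, and Xaf1 (0.975) and Ifi35 (0.946) for Bst2. These values describe 15 tumors that share pools, treatment and depth, and carry no test.

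The members were unevenly spread over cells. Each cell was thinned to 2500 UMIs, and the 15 type I-leaning members were counted in it. The share of epithelial-like cells with none of their UMIs was 80.2% to 88.3% in isotype and 54.0% to 81.0% in treated tumors, so the median cell of every tumor had 0. The 10% of cells with the most held 80.5% to 93.2% of these UMIs in isotype and 61.8% to 80.5% in treated tumors. Cells with 3 or more of the 15 members made up 1.41% to 4.30% (median 2.94%) of the class in isotype and 2.25% to 15.6% (median 5.59%) in treated tumors; the highest share was in tumor c of pool 3 and 8 of 9 treated tumors exceeded the isotype maximum. No class lacks these genes, so epithelial markers were looked at for free RNA. On average 77.0% of epithelial-like and 11.6% of T-like cells had a UMI of a given epithelial marker, at median depths of 8695 and 4040 UMIs. The gate used these markers and left out cells with many markers of another class, so these shares cannot measure free RNA.

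**Figure D4:**
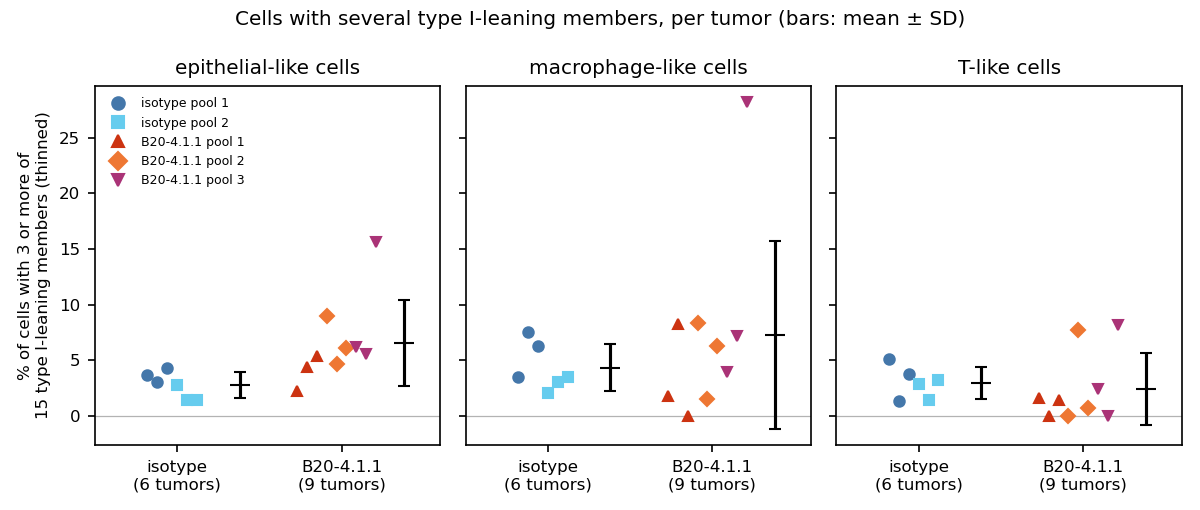
Share of cells, in percent (y axis), with 3 or more of the 15 type I-leaning members after thinning each cell to 2500 UMIs, per tumor and treatment in 3 classes; symbols mark pools and bars give the mean ± SD, which can reach below 0. Tumor c of B20-4.1.1 pool 3 has the highest share in each class, at 15.6%, 28.2% and 8.16% from left to right.

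In macrophage-like cells the summed level was 18.8 to 30.4 UMIs per 10000 in isotype tumors (median 22.9) and 19.1 to 82.2 in B20-4.1.1 tumors (median 22.8). Only tumor c of pool 3, at 82.2, lay outside the isotype range. The means were 24.0 ± 4.69 (SD, n = 6) and 29.6 ± 19.995 (SD, n = 9), and the difference of 5.56 became -1.01 without that tumor. Of 29 members tested, 0 passed (edgeR, 6 at an unadjusted p under 0.05; DESeq2 also 0), beside 0.0146% of all genes called higher and 0.0146% lower. Of all 6864 genes, 648 had an unadjusted p under 0.05 (edgeR). The members' median log2 fold change was 0.30, and -0.12 without tumor c of pool 3.

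Irf7 had the largest log2 fold change in macrophage-like cells, 1.65 (SE 0.383, edgeR adjusted p = 0.151), and was above the isotype mean in 8 of 9 treated tumors, with 0.167 to 0.410 in isotype (median 0.287) and 0.223 to 2.55 in treated tumors (median 0.769); with no filter on low counts it passed (edgeR adjusted p = 0.0249). The members with the highest levels in this class were Ifi27l2a, Ifitm3, Bst2 and Trim30a. Ifi27l2a ranged from 4.06 to 7.72 in isotype (median 5.41) and from 3.62 to 27.4 in treated tumors (median 7.03). Ifitm3 ranged from 2.02 to 13.4 (median 2.85), with 2 tumors of isotype pool 2 at 11.0 and 13.4, and from 2.85 to 17.5 (median 5.34) in treated tumors. Bst2 ranged from 1.10 to 1.49 (median 1.42) and from 0.701 to 4.73 (median 1.83), and Trim30a from 0.778 to 1.20 (median 0.984) and from 0.611 to 1.87 (median 0.830). The groups overlapped in all 4, and the direction of Ifitm3 and Trim30a reversed without tumor c of pool 3.

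In T-like cells the summed level was 10.9 to 21.4 UMIs per 10000 in isotype tumors (median 13.4) and 12.3 to 48.2 in treated tumors (median 14.3), and again 48.2, in tumor c of pool 3, was the single value above the isotype range. The means were 15.1 ± 4.16 and 19.1 ± 11.3 (SD, n = 6 and 9), and their difference of 3.98 became 0.338 without that tumor. Of 18 members tested 0 passed (edgeR, 6 at an unadjusted p under 0.05; DESeq2 also 0, with an adjusted p for 2 members), and 0% of all 5551 genes passed in either direction. Among those 5551 genes, 969 had an unadjusted p under 0.05 (edgeR). No Ifit, Oas or Mx gene had enough UMIs here to be tested. The median log2 fold change was 0.44, and 0.33 without tumor c of pool 3.

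Irf1, which in T cells responds to interferon-γ, ranged from 0.615 to 1.27 UMIs per 10000 in isotype (median 0.886) and from 0.616 to 1.57 in treated tumors (median 1.12); its log2 fold change was 0.59 (edgeR adjusted p = 0.195), and 0.735 with edgeR adjusted p = 0.0421 without B20-4.1.1 pool 3. In that fit 1 of 18 members was called higher, near the share of all genes, 250 of 6303, against 0 of 5551 with all pools. Ifi27l2a ranged from 1.76 to 5.16 (median 2.69) and from 1.54 to 24.5 (median 3.65). Ifi27 ranged from 0.780 to 1.52 (median 1.33) and from 0.981 to 2.46 (median 1.36), and Gbp7 from 0.641 to 1.71 (median 0.990) and from 0.464 to 1.45 (median 0.875). Treated and isotype tumors overlapped in each of these. Bst2 was called with the 3 tumors rich in T-like cells left out (edgeR adjusted p = 0.0482), and with all tumors its log2 fold change was 0.86 (edgeR adjusted p = 0.149).

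Whether the treatment difference itself differed between classes was tested with an interaction term within tumors. Against epithelial-like cells, 0 of 38 members passed in macrophage-like cells (edgeR, 12 at an unadjusted p under 0.05; DESeq2 also 0), where 0.00878% of all genes were called higher and 0.0527% lower. Of all genes, 998 of 11396 had an unadjusted p under 0.05 there (edgeR). In T-like cells 0 of 38 members passed (edgeR, 6 at an unadjusted p under 0.05; DESeq2 also 0), beside 0.00826% called higher and 0% lower. The 6 were near the share of all genes, 1506 of 12109 at an unadjusted p under 0.05 (edgeR). The interaction was below 0 in 31 of 38 members for macrophage-like cells, beside 48.7% of all genes, and in 32 of 38 for T-like cells, beside 44.9%. For Trim30a it was -1.37 (SE 0.339, edgeR adjusted p = 0.205) for macrophage-like cells and -1.43 (SE 0.377, edgeR adjusted p = 0.161) for T-like cells. With no filter on low counts Gbp3, Trim30a and Ifi27l2a passed for macrophage-like cells, and without B20-4.1.1 pool 1 Gbp3 and Trim30a did.

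The classes differed in which members they expressed, treatment aside. Within the 15 tumors, 20 of 38 members were higher and 6 lower in macrophage-like than in epithelial-like cells (edgeR with the tumor as a block), against 34.9% of all genes higher and 44.4% lower; with DESeq2 the members split into 16 higher and 8 lower. Trim30a, Ifi27l2a and Ifit2 had the largest log2 differences, 4.18 (SE 0.225), 3.85 (SE 0.212) and 3.35 (SE 0.235), followed by Mx1 (2.80), Gbp3 (2.78) and Rsad2 (2.54). Lower in macrophage-like cells were Iigp1 (-3.32), Ifi44 (-2.76), Ifi27 (-1.57), Ddx58 (-1.39), Rtp4 (-1.02) and Irf7 (-0.37). Ifi27l2a and Ifi27, of the same family, thus lay on opposite sides, as did Gbp3 and Iigp1 among the GTPases.

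In T-like cells 14 of 38 members were higher and 12 lower than in epithelial-like cells, against 34.2% and 42.4% of all genes. The share higher was thus near that of all genes. The median log2 difference was -0.08 over the members and -0.11 over all genes. The balance turned with the tool and the scaling: 9 were higher and 19 lower with DESeq2, and 13 higher and 16 lower with RLE size factors. Trim30a (3.91, SE 0.249), Ifi27l2a (2.99), Oas3 (2.65), Gbp7 (2.51), Ifit2 (2.01) and Igtp (1.97) were the highest on the log2 scale. Ifi44 (-4.21, SE 0.326), Ifitm3 (-3.63), Oasl1 (-3.15), Oas2 (-3.09), Iigp1 (-2.45) and Oasl2 (-2.21) were the lowest. The Oas family was split: Oas3 was higher in T-like cells while Oas2, Oasl1 and Oasl2 were lower. Ifitm3 was at 0.416 UMIs per 10000 in T-like cells, averaged over tumors, against 4.55 in epithelial-like and 6.14 in macrophage-like cells. No member that passed changed sign under these alternatives or with library totals.

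**Figure D5:**
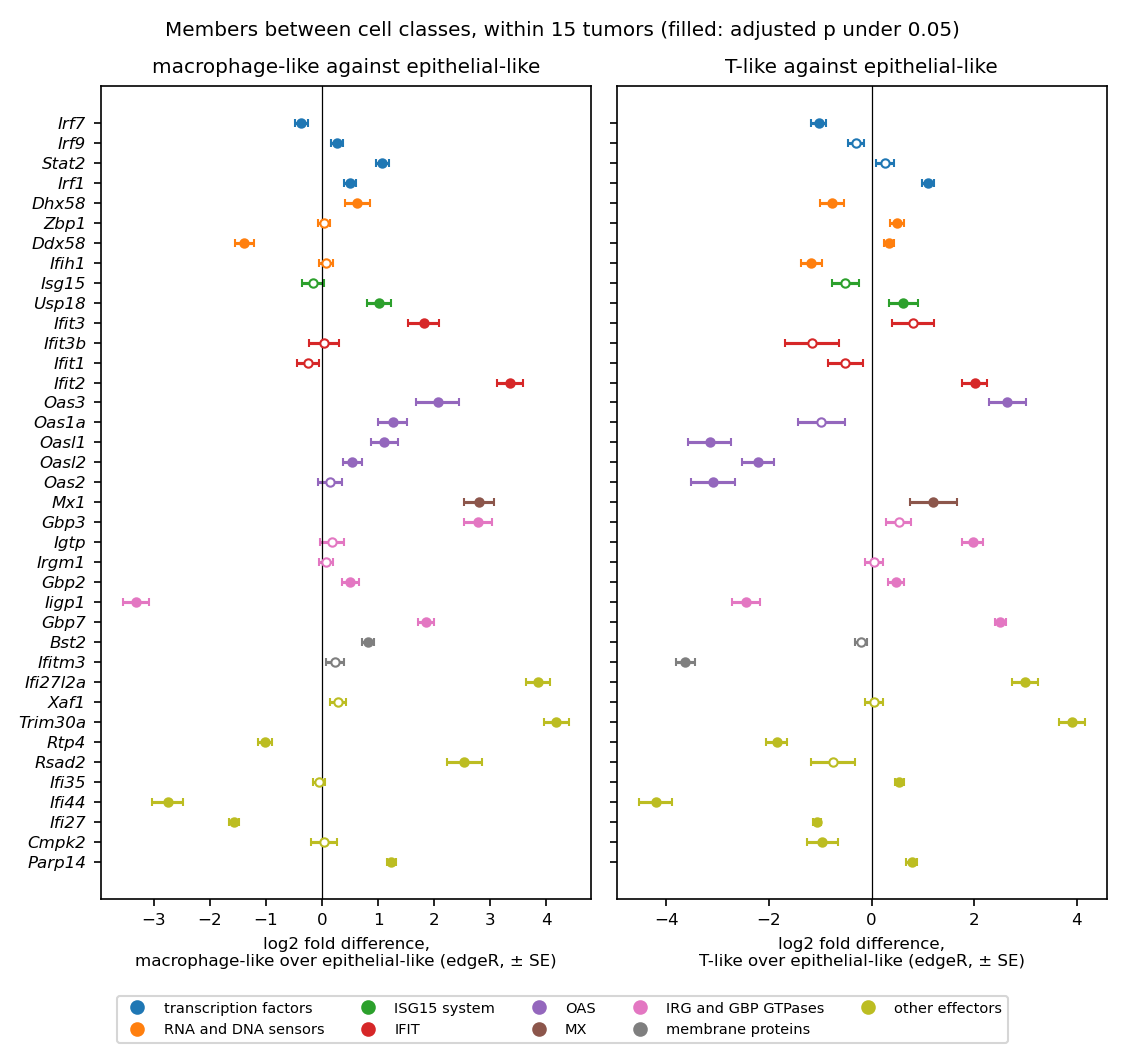
Log2 fold difference of each member between macrophage-like (left) or T-like (right) and epithelial-like cells within the 15 tumors (x axis, edgeR with the tumor as a block, bars ± SE), colored by role; filled points have an adjusted p under 0.05. Trim30a and Ifi27l2a lie farthest right among the members in macrophage-like cells, and Ifi44 and Iigp1 lie far left in both panels.

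Other classes had few tumors with 20 cells and were not compared. The summed level was 22.2 and 29.8 UMIs per 10000 in neutrophil-like cells of 2 isotype tumors, 18.4, 15.5 and 11.1 in B-like cells of 3 B20-4.1.1 tumors, and 59.1 in fibroblast-like cells of 1 B20-4.1.1 tumor. Ifitm3 had a UMI in 58 of 58 fibroblast-like cells after thinning.

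Outside the members, 62 symbols of the interferon pathway were listed, of which 60 had a row and 41 could be tested in epithelial-like cells; 4 rose (9.76%) and 1 fell (2.44%), beside 7.44% and 6.78% of all genes. The share that rose was thus near that of all genes. With the pool as a random block 0 of 41 passed, as did 0 with sums per pool, and the number that rose ranged from 1 without isotype pool 1 to 9 without isotype pool 2. These were 2.33% of 43 and 20.5% of 44 tested, beside 225 of 12364 and 2808 of 12653 genes called higher. Both shares were near those of all genes in the same fits. Among the receptors Ifngr1, the ligand-binding chain for interferon-γ, rose by 0.47 on the log2 scale (edgeR adjusted p = 0.00491), and Ifnar1 and Ifnar2 did not pass. Psmb8 and Psmb9, subunits of the immunoproteasome, rose by 0.59 and 0.44 (edgeR adjusted p = 0.0084 and 0.0489), and Ifi204, of the interferon-inducible p200 family, by 1.69 (edgeR adjusted p = 0.0232); without tumor c of pool 3, Psmb9 and Ifi204 did not pass. Mb21d1, which encodes the DNA sensor cGAS, fell by 0.92 on the log2 scale (edgeR adjusted p = 0.0261). It was not called after thinning, nor without isotype pool 1, B20-4.1.1 pool 2 or B20-4.1.1 pool 3. Ifngr1 and Psmb8 were not called without isotype pool 1 either. In macrophage-like and T-like cells 0 of 37 and 0 of 32 tested passed (edgeR).

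Few UMIs came from the ligands themselves. Ifna2, Ifna4, Ifnl2 and Ifnl3 had 0 UMIs in all 3 classes. Ifng had 231 UMIs in T-like cells, in every one of the 15 tumors, against 22 in epithelial-like and 2 in macrophage-like cells, and its mean level in T-like cells was 0.333 ± 0.157 in isotype and 0.225 ± 0.180 in treated tumors (SD, n = 6 and 9). In tumor c of pool 3, 6 of 49 T-like cells held 11 Ifng UMIs. Ifnb1 had 47 UMIs in epithelial-like and 9 in macrophage-like cells. Ifnk, an interferon of keratinocytes, had 245 in epithelial-like cells and did not pass there (log2 fold change -0.17, edgeR adjusted p = 0.729).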

How the data were processed

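Tumors were dissociated, live (DAPI-negative) cells were sorted, and 3 tumors a pool were tagged with multiplexing oligonucleotides and run on the 10x Genomics 3′ platform. The authors processed reads with Cell Ranger (version 6.1.2 per the file headers; build mm10 and Seurat 4.3.0 per the submitters' processing notes) and deposited UMI counts without normalization, as a matrix for every tumor that covers 31053 genes and 12 tag features.

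From the counts, cells with at least 2500 UMIs, not above the study's limit against multiplets, and at most 20% mitochondrial UMIs were kept (19533 of 30340 cells). A cell joined a class when at least 3 of that class's 8 to 10 markers had a UMI and no other class reached 0.5 of its marker share; 1347 cells joined none. No doublet caller was run, and doublets may remain in a class. Cells were also grouped into 24 Leiden clusters (scanpy 1.11.5, 2500 variable genes, 16 components, 20 neighbors, resolution 0.8). Each cluster was named from the same markers, and some stayed unnamed. The cluster name matched the gate in 97.9% of gated cells, which is no independent check. No barcode was shared within a pool and 44 were shared between pools. The files held 198806160 gene UMIs in all, and intervals between tumors, not counting error, are the errors given.

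UMIs were summed per tumor and class and tested with edgeR 4.0.16 (two-sided quasi-likelihood test after filterByExpr and TMM scaling, Benjamini-Hochberg adjustment over all genes tested, threshold 0.05; R 4.3.3) where at least 4 tumors a group had at least 20 cells. Classes were compared with the tumor as a block, and treatment differences between classes with an interaction term. Per the labels, each tumor of a pool came from its own mouse. The scripts were tested on simulated data, which held no pool effect, so likeness of tumors within a pool was not covered. Alternatives were RLE factors, no filter, DESeq2 1.42.0, the pool as a random block (limma 3.58.1; consensus correlation 0.534 for epithelial-like, 0.257 for macrophage-like and 0.188 for T-like cells), sums per pool, each pool left out, thinning to 2500 UMIs, clusters in place of gates, tumors over 40% T-like cells left out, a minimum of 1000 UMIs and a mitochondrial limit of 10%. Library totals in place of TMM factors, and leaving out tumor c of B20-4.1.1 pool 3, were added after seeing the data.

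Members and lists were chosen with earlier results of these data known. Per class, values were given for up to 6 members with the largest absolute log2 fold changes at an adjusted p under 0.05 and for the 4 with the highest mean level; others named beside a count, such as Irf7 in macrophage-like cells, were chosen after their values were seen. Likeness used Spearman correlation over tumors.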

Additional observations from a re-analysis of the deposited data

Results flagged for a closer look

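Within each treatment group, the highest and the lowest tumor were compared with the rest by Dixon's ratio, the gap to the nearest tumor over the group's range, for the summed level and the named members. Of 40 groups tested, 16 exceeded the 95% critical value. The groups share tumors, so these are not independent. The named members were also picked for large changes or high levels in these same data. The count therefore cannot be set against the 1 in 20 that chance flags. In 15 of the 16 the tumor was tumor c of B20-4.1.1 pool 3, which was the highest each time.

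In epithelial-like cells the ratio of that tumor was 0.615 for the summed level, 0.544 for Ifi27l2a, 0.63 for Isg15, 0.587 for Irf7, 0.606 for Trim30a, 0.551 for Oas1a, 0.506 for Ifitm3 and 0.636 for Bst2. In macrophage-like cells it was 0.864 for the summed level, 0.777 for Ifi27l2a, 0.701 for Ifitm3, 0.545 for Bst2 and 0.619 for Trim30a. In T-like cells it was 0.748 for the summed level and 0.76 for Ifi27l2a. The tumor had 972 epithelial-like, 142 macrophage-like and 49 T-like cells. In the isotype group, Oas1a in epithelial-like cells was highest in pool 1 tumor a, with a ratio of 0.732.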

How the results depend on the processing

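The count of members that rose in epithelial-like cells, 18, was 0 with the pool as a random block and 0 with sums per pool, and ranged from 7 to 24 when each pool was left out in turn; the block fit and the sums rest on 5 pools. Over the pools left out, genes called higher ranged from 225 of 12364 without isotype pool 1 to 2808 of 12653 without isotype pool 2. The count of members was 18 with RLE factors, 16 with no filter, 20 with DESeq2, 15 with library totals and 14 without tumor c of B20-4.1.1 pool 3. Genes called higher in these fits were 904 of 12327, 654 of 21527, 905 of 13585, 693 of 12327 and 759 of 12300, in that order. The median log2 fold change was 0.47 without B20-4.1.1 pool 3. In macrophage-like cells 1 member passed with no filter on low counts; in T-like cells the count ranged from 0 to 1 over the pools left out and was 1 without the tumors rich in T-like cells. Of all genes, 10 of 16545 were higher in the unfiltered macrophage-like fit, and 250 of 6303 in the T-like fit without B20-4.1.1 pool 3. The interaction for macrophage-like cells gave 3 members with no filter and 0 to 2 over the pools left out. Ifitm3 in macrophage-like cells reversed to -0.14 without tumor c of pool 3 and ranged from -0.425 to 1.40 over the pools left out. Trim30a in macrophage-like cells reversed to -0.025 with DESeq2, -0.015 with library totals, -0.17 without tumor c of pool 3 and -0.03 after thinning, and ranged from -0.16 to 0.25 over the pools left out. Gbp7 in T-like cells ranged from -0.486 to 0.269 over the pools left out. The cause of these changes was not tested. Library totals moved the median of all genes in T-like cells from 0.02 to -0.14 on the log2 scale. Of the other values, 331 counted as unchanged. A fold change did so if it kept its direction and side of the threshold. A median or summed level did so if it moved by less than the SD over B20-4.1.1 tumors, whatever its direction. The summed difference in macrophage-like cells thus counted as unchanged, though it went from 5.56 to -1.01 without tumor c of pool 3. Of the rest, 32 called values missed the threshold, 1 newly passed and 1 moved. No paired analysis was possible because replicate numbers of pools only name samples, and each pool holds other tumors under a single treatment. Depth limits the low members: Ifit, Oas and Mx genes were not testable in T-like cells.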

Other observations

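Interferon-β transcripts were concentrated in a single cell, which was singled out after its values were seen. Of 13 kept cells with any Ifnb1 UMI, 1 epithelial-like cell of tumor a of B20-4.1.1 pool 1 held 45, and the next highest cell held 4. The cell had 16537 UMIs in all, against a median of 9840.5 in the 888 epithelial-like cells of that tumor. It held 102 UMIs of 13 members, among them 53 of Ifit1, 19 of Isg15, 7 of Ifit3 and 7 of Ifitm3; the median cell of the same class and tumor held 8 member UMIs, and 10 of the 888 cells held more than this cell. The same tumor had the lowest summed member level of the treated tumors in epithelial-like cells. A single cell allows no test.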
